A study of Oryza sativa Japonica Group with 6 samples.

Results

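The ploidy comparison at the single microspore stage (SCP) set anthers of autotetraploid rice against anthers of the diploid rice it was made from, across the miRNAs measured in both. Members were all miRNAs present by the same name in the deposited tables of both ploidies, which gave 357 of the 486 miRNAs of the series. Of these 357 miRNAs, 314 had a normalized read value over 10 in at least 1 of the SCP libraries and were compared, and 43 stayed at or under 10 in both. A further 84 miRNAs were listed for the tetraploid only and 45 for the diploid only, and they are described apart. The SCP-4x library came from Taichung65-4x, the autotetraploid obtained by doubling the chromosomes of Taichung65-2x with colchicine and then selfing it over many generations. The SCP-2x library came from its diploid progenitor, Taichung65-2x. Both lines are japonica rice (Oryza sativa) grown in the field, and the labels give no other treatment or transgene. Florets measured 6.50 to 7.00 mm and anthers 1.50 to 2.05 mm for SCP-4x, against florets of 5.50 to 6.00 mm and anthers of 1.40 to 1.55 mm for SCP-2x, so that organs of different size carried the same stage label. Whole anthers were used, so the microspores and the cells of the anther wall were measured together, and fewer cells of a type and less RNA per cell cannot be told apart. There was 1 library for each ploidy and no replicate. Every value below therefore compares 2 libraries, no difference has a replicate check, and no p-value is given.

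In plants, miRNAs are cut from hairpin precursors by DICER-LIKE proteins, and 1 strand of the duplex guides an ARGONAUTE protein to matching transcripts, while the strand from the other arm of the hairpin is usually degraded. Most conserved miRNAs silence transcription factors, whereas many of the longer miRNAs of rice are known to enter ARGONAUTE4-clade proteins and direct DNA methylation. In grass anthers the families miR2118 and miR2275 start the production of phased siRNAs (phasiRNAs), miR2118 mainly before meiosis and miR2275 during it. Both families were listed in both SCP libraries.

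The sequences that carried the comparison are printed here, 5′ to 3′ and with T in place of U as in the deposited tables, and the capitals mark the seed (bases 2 to 8). Names follow the tables, where osa is rice and bdi, hvu, ppt, sbi, tae and zma are other plants. PC is a predicted miRNA with no match among known precursors. In a name with MIR, -p5 or -p3 is a product of that arm, which the study takes as opposite to the annotated one. For MIR5083 and MIR397b both arms carry such names, and all such names are counted here as products of the other arm. L and R give bases gained or lost at the left and right end, and ss marks substitutions. The first set holds both miR2275 sequences that were far higher in SCP-4x and share a seed. The annotated arm of the MIR2275c hairpin, osa-miR2275c_R-2, follows and was not higher on the deposited scale.
osa-miR2275d: cTTGTTTTtctccaatatctca
osa-MIR2275c-p3: aTTGTTTTtctccaatatctca
osa-miR2275c_R-2: aGAATTGGaggaaaacaaact
The second set holds 4 abundant miR2118 sequences and a product of the opposite arm, which differed in direction.
osa-miR2118d: tTCCTGATgcctcccatgccta
osa-miR2118b: tTCCCGATgcctcccattccta
osa-miR2118e: tTCCCAATgcctcccatgccta
osa-miR2118h: tTCCTGATgcctctcattccta
osa-MIR2118h-p5: gGAATGAGaacatgaaggaaag
The third set holds sequences that were higher in SCP-4x, namely both arms of MIR5083 and of MIR1874, miR1876 and 3 predicted miRNAs with 1 seed. All are 24 nt long except osa-MIR5083-p3, which is 18 nt long.
osa-MIR5083-p5: gTCCTTCTgattgatagaaaccaa
osa-MIR5083-p3: aTGGATCCttctgagcct
osa-miR1874-3p: tATGGATGgaggtgtaacccgatg
osa-miR1874-5p: tAGGGCTActacaccatccataag
osa-miR1876: aTAAGTGGgtttgtgggctggccc
PC-5p-72854_262: aCGAGACAttttataggacaataa
PC-5p-50441_402: aCGAGACAtttcataggacaacga
PC-5p-122014_164: aCGAGACAtttcatataacaacga
The fourth set holds sequences that were lower in SCP-4x, among them a pair with 1 seed, and miR528, a 21 nt sequence that was higher.
osa-miR5796: tCATTCAGgattgaagccgcc
osa-miR166i-3p_L+2R-2: tCTCGGATcaggcttcattcc
osa-miR166a-3p: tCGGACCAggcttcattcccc
osa-miR168a-5p: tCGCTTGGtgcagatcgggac
bdi-miR5054_L+2: gTTCCCCAcggtcggcgcca
osa-miR5072_L-2_1ss3AG: gTTCCCCAgcggagtcgcca
osa-miR528-5p: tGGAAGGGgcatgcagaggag

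Levels are normalized reads, that is, the copy number of a sequence multiplied by 1 factor for its library. In these units 1 read was worth 0.797 in SCP-4x and 0.888 in SCP-2x. The listed miRNAs summed to 61725 normalized reads (about 77399 reads) in SCP-4x and to 77448 (about 87173 reads) in SCP-2x, and the 5 most abundant made up 29.7% of the sum in SCP-4x and 38.0% in SCP-2x. A miRNA is written here as called higher or lower in SCP-4x where the larger value exceeded 10 and the fold exceeded 2. Where both values were whole numbers of reads, the fold is followed by its 95% exact binomial (Clopper-Pearson) interval, which covers counting error only.

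Of the 314 miRNAs compared, 44 (14.0%) were called higher in SCP-4x and 39 (12.4%) were called lower. The median log2 ratio of SCP-4x over SCP-2x was −0.11, with 140 miRNAs above 0 and 174 below. Fewer miRNAs were called at the earlier stages. At pre-meiotic interphase (PMA) 5.87% of 341 miRNAs were called higher and 5.87% lower, and at meiosis (MA) 5.76% of 330 were called higher and 10.3% lower. Among the SCP calls with whole reads, the counting interval left out 1 for 24 of 31 higher and for 31 of 34 lower miRNAs. The split between directions rests on the scale. On the deposited scale 53.0% of the calls were higher, and with both SCP libraries scaled to equal sums, which moved every log2 ratio up by 0.35, 81.3% were higher.

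Length separated the directions on the deposited scale. Of the 82 miRNAs of 24 nt that were compared, 34 were called higher and 0 lower, 71 lay above 0, and their median log2 ratio was 0.74. Of the 169 miRNAs of 21 nt, 2 were called higher and 33 lower, and the median log2 ratio was −0.50. The 44 miRNAs of 22 nt stood between, with 5 called higher, 2 lower and a median log2 ratio of 0.34. Scaling to equal sums adds 1 constant to every log2 ratio, and the medians of the same miRNAs then stood at 1.09, −0.16 and 0.69 for 24, 21 and 22 nt. With the calls made again on that scale, 46 miRNAs of 24 nt were called higher and 0 lower. Of 21 nt, 10 were then called higher and 13 lower, so the lean of the 21 nt calls rests on the scale.

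**Figure D1:**
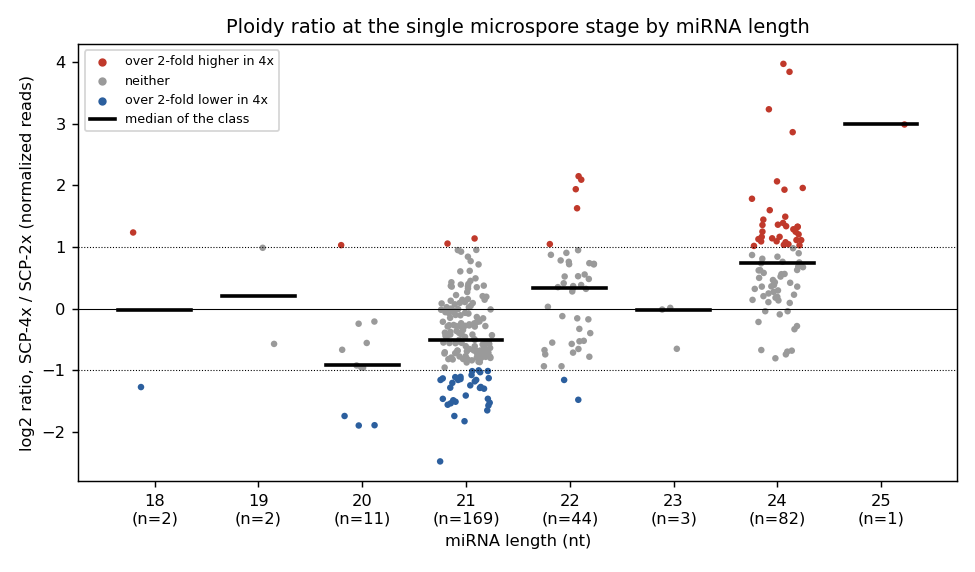
Log2 ratio of normalized reads, SCP-4x over SCP-2x, for each of the 314 miRNAs compared (points), by length in nt. Bars are class medians and dotted lines mark 2-fold. Points of 24 nt reach 3.97 and their median is 0.74, points of 21 nt reach down to −2.48 and their median is −0.50.

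As a share of all listed signal, 24 nt miRNAs made up 10.3% in SCP-4x and 5.26% in SCP-2x, 22 nt miRNAs 17.2% in SCP-4x and 8.998% in SCP-2x, and 21 nt miRNAs 69.8% in SCP-4x and 82.9% in SCP-2x. The class of 24 nt was thus the smaller in signal in both libraries. Summed over the miRNAs compared, 24 nt members held 5619 normalized reads in SCP-4x and 3990 in SCP-2x, and 21 nt members held 42866 in SCP-4x and 63825 in SCP-2x. The median 24 nt miRNA stood at 20.7 normalized reads in SCP-4x and 12.4 in SCP-2x, so many 24 nt calls rested on few reads.

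**Figure D2:**
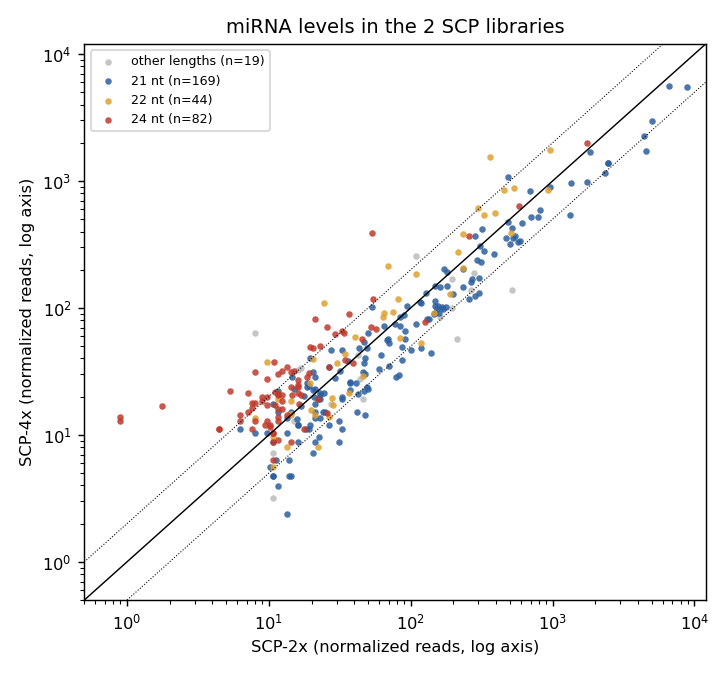
Normalized reads of each compared miRNA in SCP-4x (vertical, log axis) and in SCP-2x (horizontal, log axis), coloured by length. The solid line marks equal values and the dotted lines 2-fold. Most 24 nt points lie above the solid line and most 21 nt points below it, at low and at high levels.

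Within a length, the miRNAs were also described by kind, first base and arm. Among 24 nt miRNAs, 11 of 21 known rice miRNAs, 6 of 20 products of the other arm and 17 of 40 predicted miRNAs were called higher, with median log2 ratios of 1.02, 0.47 and 0.76. Among 21 nt miRNAs, 16 of 84 known rice miRNAs, 8 of 64 products of the other arm and 7 of 14 predicted miRNAs were called lower, with medians of −0.45, −0.53 and −0.85. The predicted miRNAs therefore lay on opposite sides according to length. The 5′ base, which is known to steer plant small RNAs among ARGONAUTE proteins, was A in 55 of the 82 miRNAs of 24 nt, and 21 of these 55 were called higher at a median log2 ratio of 0.74. The 8 that began with T had 6 called higher and a median of 1.36, and the 15 that began with G had 5 called higher and a median of 0.38. Among 21 nt miRNAs that began with A, 7 of 26 were called lower, 1 lay above 0 and the median was −0.70, and among the 91 that began with T, 15 were called lower and the median was −0.43. Among 22 nt miRNAs, the 24 that began with T had a median log2 ratio of 0.53 and the 11 that began with G a median of −0.65. The 20 known rice miRNAs of 22 nt had a median of 0.50 and the 18 products of the other arm a median of −0.42. These groups overlap with the miR2118 strands described below. The annotated miR2118 sequences printed above are 22 nt and begin with T, and osa-MIR2118h-p5 is 22 nt and begins with G. For 24 nt miRNAs, 11 of 26 from the 3p arm and 16 of 40 from the 5p arm were called higher, with medians of 0.76 and 0.74.

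The phasiRNA triggers were split by strand and family. Osa-miR2275d had 1546 normalized reads in SCP-4x and 362 in SCP-2x, which was 4.27-fold higher in SCP-4x. Osa-MIR2275c-p3, which has the same seed, had 108 normalized reads in SCP-4x and 24.4 in SCP-2x, which was 4.44-fold higher. Such near-identical sequences can share reads, and their values are not independent. The other 22 nt miR2275 sequences leaned the same way without being called, as zma-miR2275b-3p_1ss22AG had 851 in SCP-4x and 454 in SCP-2x (1.87-fold, interval 1.69 to 2.09) and osa-miR2275a_1ss15AG had 39.5 in SCP-4x and 20.4 in SCP-2x. All 5 sequences of 22 nt lay above 0, at a median log2 ratio of 0.95, and together held 2638 normalized reads in SCP-4x and 936 in SCP-2x.

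The 21 nt strand of the same family did not share this. Osa-miR2275c_R-2, the most abundant miRNA of SCP-4x, had 5553 normalized reads there and 6667 in SCP-2x, which was 1.20-fold lower in SCP-4x (1.16 to 1.24) on the deposited scale and turned to higher with equal sums. Zma-miR2275b-5p_1ss12CG had 1395 in SCP-4x and 2458 in SCP-2x, a log2 ratio of −0.82, and zma-miR2275c-5p_2ss14CA15TC is listed with the same sequence and nearly the same values. The 3 entries of 21 nt lay below 0. Within the MIR2275c hairpin, the log2 ratio of the annotated arm minus that of the other arm was −2.41, the widest gap of the 39 hairpins with both arms compared.

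Among the 12 annotated miR2118 sequences, the strand that slices phasiRNA precursors, 1 was called higher, against 14.0% of all miRNAs compared. Of the 12, 10 lay above 0, and the median log2 ratio was 0.53. Osa-miR2118d, the most abundant, had 1767 normalized reads in SCP-4x and 964 in SCP-2x. Osa-miR2118b had 885 in SCP-4x and 530 in SCP-2x, and osa-miR2118e, the member called higher, had 618 in SCP-4x and 299 in SCP-2x, which was 2.07-fold. Osa-miR2118f and osa-miR2118o went the other way, at 387 and 130 in SCP-4x against 509 and 190 in SCP-2x. Both osa-miR2118f and osa-miR2118o share the seed TCCTGAT with osa-miR2118d, so that seed held members on either side of 0. The 3 members with the seed TCCCGAT and the 2 with the seed TCCCAAT all lay above 0. Together the 12 held 5846 normalized reads in SCP-4x and 3873 in SCP-2x.

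The products of the other arm of miR2118 hairpins stood at lower levels than the annotated strands. Of 17 compared, 0 were called higher and 2 lower, and the median log2 ratio was −0.33, which became 0.02 with equal sums. Over all miRNAs compared, 14.0% were called higher and 12.4% lower, so the lower calls here stood near the share over all. Osa-MIR2118k-p5 had 39.1 normalized reads in SCP-4x and 86.2 in SCP-2x (2.21-fold lower, 1.55 to 3.18, not called with equal sums), and osa-MIR2118h-p5 had 7.97 in SCP-4x and 22.2 in SCP-2x (2.79-fold lower, 1.29 to 6.50). In 10 of the 11 miR2118 hairpins with both arms compared, the annotated arm had the higher log2 ratio, by a median of 0.59, and this difference within a hairpin does not depend on the scale. In the 28 other hairpins the annotated arm had the higher log2 ratio in 16, by a median of 0.08. Over all 39 hairpins, both arms had the same sign in 21, and their log2 ratios gave r = 0.17 across hairpins, which share libraries and, within families, reads. In 12 hairpins the arms differed by over 1 on the log2 scale. Osa-miR1871, for example, had 78.2 normalized reads in SCP-4x and 125 in SCP-2x, while osa-MIR1871-p5 had 19.9 in SCP-4x and 9.77 in SCP-2x.

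**Figure D3:**
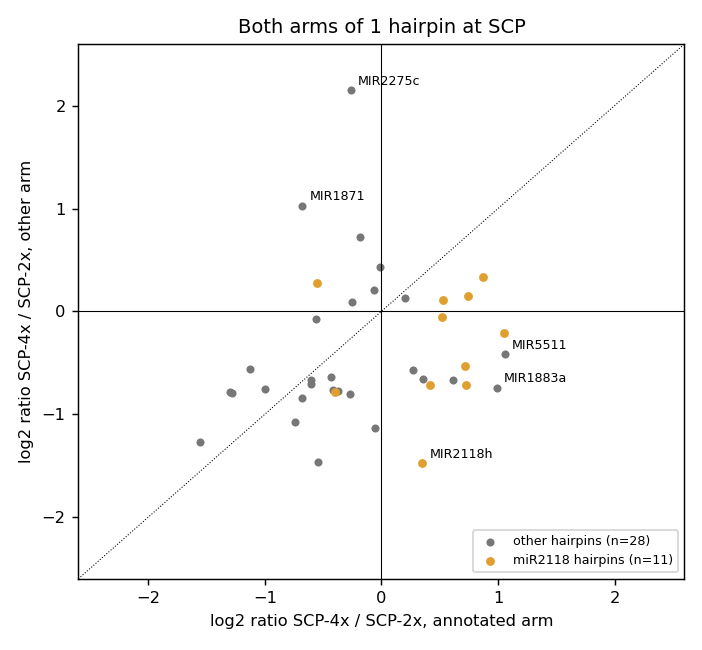
Log2 ratio of SCP-4x over SCP-2x for the annotated arm (horizontal) and for the other arm (vertical) of 39 rice hairpins, with the 11 miR2118 hairpins in orange. The dotted line marks equal ratios. All but 1 of the orange points lie below it, and MIR2275c lies farthest above it.

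Among the called miRNAs over 50 normalized reads, the 2 highest ratios belonged to sequences of 25 and 24 nt. Osa-MIR5083-p5 (24 nt) had 388 normalized reads in SCP-4x and 53.3 in SCP-2x (7.29-fold higher, 5.56 to 9.69). The other arm of this hairpin, osa-MIR5083-p3 (18 nt), had 258 in SCP-4x and 109 in SCP-2x (2.36-fold higher, 1.91 to 2.93). Both arms of MIR5083 were thus higher, as were both of MIR1874. Osa-miR2106_L+3R+1, at 25 nt the longest compared, had 63.8 in SCP-4x and 7.996 in SCP-2x (7.98-fold higher, 4.00 to 18.1). Osa-miR1874-3p had 81.3 in SCP-4x and 21.3 in SCP-2x (3.81-fold higher, 2.43 to 6.23). Osa-miR1874-5p had 12.8 in SCP-4x and 0.888 in SCP-2x, where that value is 1 read, and its ratio of 14.4 carries an interval of 2.23 to 602.

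The list of transposon-derived or long families, which includes miR1874, miR1876, miR812, miR1862 and miR1873, had 12 members compared. Of these, 7 were called higher and 0 lower, at a median log2 ratio of 1.05. Over all miRNAs compared, 14.0% were called higher. The members named here are 24 nt long, and of all 82 miRNAs of 24 nt, 34 were called higher at a median of 0.74. Whether the list differs from its length class was not tested. Osa-miR1876, one of the long miRNAs of rice, had 70.2 normalized reads in SCP-4x and 25.8 in SCP-2x (2.72-fold higher, 1.77 to 4.30). Osa-miR812g had 66.3 in SCP-4x and 32.7 in SCP-2x, and osa-miR812n-5p_L-1R+1 had 50.6 in SCP-4x and 22.9 in SCP-2x. Members of miR812, a family that arose from transposon sequences, varied, since osa-miR812s_1ss11AG had 14.8 in SCP-4x and 25.8 in SCP-2x. Osa-miR1862d had 31.9 in SCP-4x and 15.1 in SCP-2x (2.11-fold higher, 1.17 to 3.97), and osa-MIR1873-p5 had 14.4 in SCP-4x and 6.22 in SCP-2x (2.31-fold higher, 0.92 to 6.54). The last interval holds 1.

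Some long sequences with 1 seed were called in the same direction, and others were not. With the seed AGACGGA, osa-miR812g and osa-miR812s_1ss11AG stood at log2 ratios of 1.02 and −0.80. Of all 82 miRNAs of 24 nt compared, whatever their seed, 34 were called higher. Of 4 members with the seed CGAGACA, the 3 predicted 24 nt miRNAs were called higher. These 3 sequences resemble each other, and whether they share reads was not tested. PC-5p-72854_262 had 90.1 normalized reads in SCP-4x and 36.9 in SCP-2x, PC-5p-50441_402 had 62.6 in SCP-4x and 29.3 in SCP-2x, and PC-5p-122014_164 had 49.4 in SCP-4x and 19.5 in SCP-2x. The fourth, osa-MIR5529-p3, is 21 nt long and was not called, at 71.8 in SCP-4x and 64.9 in SCP-2x. All 3 sequences of miR1436 (seed TTATATT, 24 nt) lay above 0 and 2 were called higher, osa-miR1436_L+3_2ss5CT16GA with 22.3 in SCP-4x and 5.33 in SCP-2x and osa-miR1436_L+3_1ss5CT with 16.3 in SCP-4x and 7.55 in SCP-2x. Osa-MIR5542-p3_1ss17AG stood at 117 in SCP-4x and 54.2 in SCP-2x (2.16-fold higher, 1.59 to 2.97). The most abundant 24 nt miRNA, osa-miR5792_1ss22AC, was not called, at 2002 in SCP-4x and 1738 in SCP-2x (1.15-fold, 1.09 to 1.22), nor was its other arm, osa-MIR5792-p3, at 638 in SCP-4x and 581 in SCP-2x.

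The conserved families that silence transcription factors leaned towards SCP-2x. The list of miR166, miR171 and miR396, which restrain HD-ZIP III, GRAS and growth-regulating factor (GRF) genes, had 27 members compared, with 0 called higher, 5 lower (18.5%, against 19.5% of all 21 nt miRNAs) and a median log2 ratio of −0.68. With equal sums the median was −0.33, and of the 5 calls that of osa-miR166i-3p_L+2R-2 was kept. Osa-miR166a-3p, the most abundant miRNA of SCP-2x, had 5521 normalized reads in SCP-4x and 8833 in SCP-2x, a ratio that was not called. The shifted variant osa-miR166i-3p_L+2R-2, whose seed differs from it, had 44.5 in SCP-4x and 140 in SCP-2x, which was 3.14-fold lower in SCP-4x. Sbi-miR166a_R+1_1ss17TC had 48.6 in SCP-4x and 117 in SCP-2x (2.41-fold lower, 1.77 to 3.32), and the 5p strands osa-miR166a-5p and osa-miR166l-5p had 23.1 and 11.96 in SCP-4x against 49.8 and 26.7 in SCP-2x. The 6 miR166 sequences with the seed CGGACCA all lay below 0, at a median of −0.68, whereas the 7 annotated 5p strands had a median of −0.02, or 0.33 with equal sums. In miR171, osa-MIR171i-p3 had 2957 in SCP-4x and 4987 in SCP-2x, and osa-miR171i-5p, at the edge of the 2-fold limit, had 35.1 in SCP-4x and 70.2 in SCP-2x (2.00-fold lower, 1.37 to 2.96). Osa-miR396e-5p had 2280 in SCP-4x and 4417 in SCP-2x, just short of a call.

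**Figure D4:**
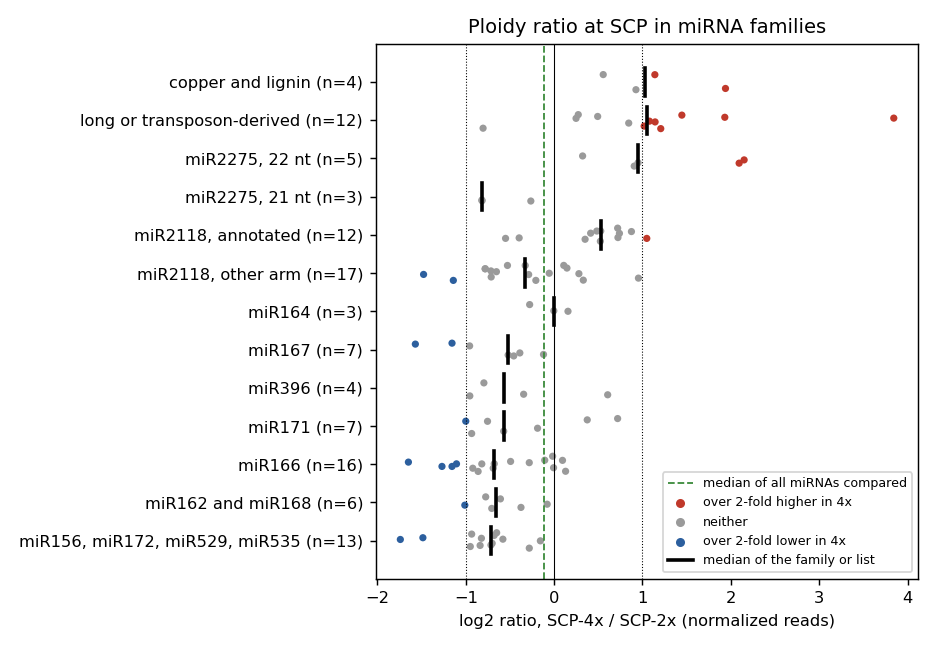
Log2 ratio of SCP-4x over SCP-2x (horizontal) for members (points) of families and lists, with the median of each (black bar) and of all 314 miRNAs (green dashed line, −0.11). The copper list, the long families and 22 nt miR2275 have medians near 1, and most of the conserved families have medians between −0.5 and −0.8.

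The phase change list holds miR156, miR529 and miR535, which silence SPL genes, and miR172, which silences AP2-like genes. It had 13 members compared and 0 above 0, at a median log2 ratio of −0.72, or −0.37 with equal sums. Of these members, 2 were called lower (15.4%), against 12.4% of all miRNAs compared and 33 of the 169 miRNAs of 21 nt. Osa-miR172d-5p_R+1 had 29.5 normalized reads in SCP-4x and 82.6 in SCP-2x (2.80-fold lower, 1.89 to 4.22). Osa-miR156l-5p_R-1 was near the limit of detection, with 3.19 in SCP-4x and 10.7 in SCP-2x (3.34-fold lower, 1.01 to 14.2), and the abundant osa-MIR529a-p5 had 974 in SCP-4x and 1740 in SCP-2x without a call. The small RNA feedback list, in which miR168 silences AGO1 and miR162 silences DCL1, had 6 compared and 0 above 0, at a median of −0.66. Of the 6, 1 was called lower, against 12.4% of all miRNAs compared. Osa-miR168a-5p had 1155 in SCP-4x and 2327 in SCP-2x (2.01-fold lower, 1.89 to 2.15), a call that was lost under each of the other 3 scalings (log2 ratio −0.66 with equal sums, −0.90 with the median ratio and −0.97 with clean reads), while the opposite strand, osa-miR168a-3p_L-3, had 904 in SCP-4x and 955 in SCP-2x.

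The auxin list holds miR160 and miR167 against auxin response factors, miR164 against NAC genes and miR390 for the tasiRNAs of TAS3. It had 14 compared and 0 called higher, at a median log2 ratio of −0.41, or −0.07 with equal sums. Of the 14, 2 were called lower (14.3%), against 12.4% of all miRNAs compared and 33 of the 169 miRNAs of 21 nt. Both called members were strands opposite to the ARF-silencing one, osa-miR167a-3p_L+1R-1 with 53.4 in SCP-4x and 119 in SCP-2x (2.23-fold lower, 1.65 to 3.03, not called with equal sums) and osa-MIR167c-p3 with 4.78 in SCP-4x and 14.2 in SCP-2x. The list's most abundant member, osa-miR167d-5p_R+1, had 848 in SCP-4x and 921 in SCP-2x, a small difference that changed sign with equal sums. Osa-miR164a, chosen for mention after its values were seen, had 308 in SCP-4x and 309 in SCP-2x. Of the 4 members of miR159 and miR319, which silence GAMYB and TCP genes, 1 was called lower, osa-miR319a-3p.2-3p_R+1 at 9.57 in SCP-4x and 22.7 in SCP-2x (not called with equal sums), and osa-miR159a.1 had 832 in SCP-4x and 690 in SCP-2x. The median of the 4 members of miR159 and miR319 was −0.39, and their 1 lower call stands against 12.4% of all miRNAs compared. Both members of the phosphate and sulfate list lay below 0 without a call, at a median of −0.87, and osa-miR1425-5p, which silences PPR genes of the fertility-restorer group, had 959 in SCP-4x and 1359 in SCP-2x (1.42-fold lower, 1.31 to 1.53). No miR444 sequence, the one family of the MADS-box list, was among the 357 miRNAs.

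The copper-linked miRNAs leaned towards SCP-4x. All 4 compared members of the copper and lignin list lay above 0, 2 were called higher and 0 lower, and the median log2 ratio was 1.03. Over all miRNAs compared, 14.0% were called higher. Of the 4, osa-MIR397b-p3 and osa-MIR397b-p5 come from 1 hairpin. Osa-miR528-5p, a monocot miRNA that responds to copper, had 1071 normalized reads in SCP-4x and 486 in SCP-2x (2.20-fold higher, 1.99 to 2.44). It is 1 of the 2 miRNAs of 21 nt that were called higher, the other being osa-miR5511, with 40.7 in SCP-4x and 19.5 in SCP-2x (2.08-fold higher, 1.24 to 3.60). Osa-MIR397b-p3, from the hairpin of the laccase-silencing miR397, had 37.5 in SCP-4x and 9.77 in SCP-2x (3.84-fold higher, 1.96 to 8.20), and osa-MIR397b-p5 had 59.4 in SCP-4x and 40.4 in SCP-2x. Osa-miR408-3p, which silences copper proteins and was chosen for mention after its values were seen, had 101 in SCP-4x and 53.3 in SCP-2x (interval of the fold 1.39 to 2.63). Osa-miR1432-5p_R+1, the one member of the calcium list, had 215 in SCP-4x and 69.3 in SCP-2x (3.10-fold higher, 2.40 to 4.04).

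The 21 nt miRNAs called lower came both from the listed conserved families and from miRNAs on no list. The 47 members of 21 nt from the auxin, phase change, HD-ZIP III and feedback lists had 8 called lower and a median log2 ratio of −0.58. The 102 on no list, predicted miRNAs included, had 23 called lower and a median of −0.52. Over all 169 miRNAs of 21 nt, 33 were called lower, so both groups stood near the share of their length. These groups were drawn for this contrast after the values were seen. Osa-miR5796, from a rice family, had 541 normalized reads in SCP-4x and 1329 in SCP-2x (2.46-fold lower, 2.24 to 2.70). Osa-miR5800 had 131 in SCP-4x and 301 in SCP-2x (2.30-fold lower, 1.91 to 2.79), and osa-miR5806 had 125 in SCP-4x and 283 in SCP-2x (2.26-fold lower, 1.86 to 2.76). With equal sums none of these 3 was called, at log2 ratios of −0.95, −0.86 and −0.83. Osa-MIR5495-p3 had 28.7 in SCP-4x and 79.1 in SCP-2x (2.75-fold lower, 1.85 to 4.18), while the annotated arm, osa-miR5495, was closer between the ploidies at 25.5 in SCP-4x and 37.3 in SCP-2x. PC-5p-72318_316, a predicted miRNA, had 8.77 in SCP-4x and 31.1 in SCP-2x (3.54-fold lower, 1.76 to 7.74).

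Among the called miRNAs over 50 normalized reads, the 2 lowest ratios belonged to sequences that, by the notes to the deposited tables, matched a mature miRNA of miRBase while neither the reads nor the precursor matched the genome. Bdi-miR5054_L+2 had 56.6 normalized reads in SCP-4x and 211 in SCP-2x (3.72-fold lower, 2.84 to 4.92). Osa-miR5072_L-2_1ss3AG, with the same seed TTCCCCA, had 139 in SCP-4x and 514 in SCP-2x (3.71-fold lower, 3.12 to 4.42). Ppt-miR894_R+1, of the same mapping class, had 1715 in SCP-4x and 4555 in SCP-2x (2.66-fold lower, 2.52 to 2.79). These 3 were the members called lower among 14 such sequences compared, of which 3 others were called higher. Over all miRNAs compared, 12.4% were called lower and 14.0% higher. The 14 held 2478 normalized reads in SCP-4x and 5892 in SCP-2x, and osa-miR812g and osa-miR812n-5p_L-1R+1 above are also of this kind. What these reads derive from was not tested.

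The same miRNAs were then followed back to the earlier stages. Those libraries are not independent of the SCP ratios, since the authors set the factor of each library against a reference drawn from all samples. A miRNA could also be listed through its value at any stage. Across 297 miRNAs compared at both stages, the log2 ratio at SCP went with that at MA (r = 0.54, Spearman's rho = 0.56). Within a length the r with MA was smaller, at 0.37 for 70 miRNAs of 24 nt, 0.24 for 165 of 21 nt and 0.45 for 44 of 22 nt. Across 298 miRNAs the ratio at SCP did not follow that at PMA (r = −0.08, rho = −0.10). These are correlations across miRNAs of the same 2 libraries per stage, and miRNAs are not replicates. Of the 34 miRNAs of 24 nt called higher at SCP, 27 were compared at MA, where 25 lay above 0 and 9 were called higher. All 34 were compared at PMA, where 14 lay above 0. Of all 82 miRNAs of 24 nt, 70 were compared at MA, with 56 above 0 and 14 called higher. At PMA 77 of the 82 were compared, with 35 above 0. Summed over the 34, normalized reads at PMA, MA and SCP were 991, 1257 and 1543 for the tetraploid, against 1052, 646 and 507 for the diploid. The SCP values chose these 34, so their SCP sums are a description. Summed over all 82 miRNAs of 24 nt, the values were 6115, 7672 and 5619 for the tetraploid, against 6531, 6238 and 3990 for the diploid, so the whole class was lower at SCP than at MA in both ploidies.

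The 33 miRNAs of 21 nt called lower at SCP were likewise chosen by their SCP values. Their sums at PMA, MA and SCP were 9685, 7060 and 4279 normalized reads for the tetraploid, against 8920, 11255 and 10282 for the diploid. All 169 miRNAs of 21 nt summed to 90816, 61209 and 42866 for the tetraploid, against 81179, 81659 and 63825 for the diploid, and all 314 miRNAs compared were also lower in sum at SCP than at PMA in both ploidies (128106 at PMA and 60467 at SCP for the tetraploid, against 128613 and 76934 for the diploid). At MA 29 of the 33 lay below 0 and 5 were called lower, and at PMA 15 lay below 0. Of the 169 miRNAs of 21 nt, 165 were compared at MA, with 139 below 0 and 18 called lower. At PMA 160 of them were compared, with 65 below 0. For 22 nt miRNAs the median log2 ratio was −0.41, −0.16 and 0.34 at PMA, MA and SCP. Osa-miR2275d followed that course, with 1113, 1106 and 1546 normalized reads for the tetraploid, against 2417, 687 and 362 for the diploid. Osa-MIR5083-p5 was higher in the tetraploid at every stage, with 280, 307 and 388 against 131, 76.4 and 53.3 for the diploid. Osa-miR1432-5p_R+1 had 196, 164 and 215 for the tetraploid, against 5.39, 3.77 and 69.3 for the diploid. For osa-miR1432-5p_R+1 the gap at SCP was the smallest of the 3 stages.

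**Figure D5:**
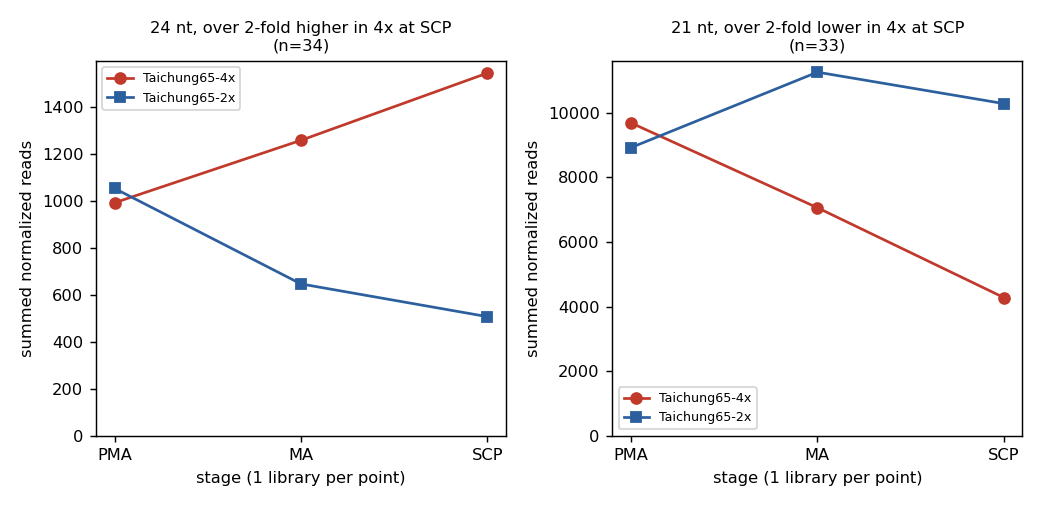
Summed normalized reads at PMA, MA and SCP in Taichung65-4x (circles) and Taichung65-2x (squares), left for the 34 miRNAs of 24 nt called higher at SCP and right for the 33 of 21 nt called lower. Each point is 1 library. The SCP values chose the members, and the ploidies were close at PMA (991 in Taichung65-4x and 1052 in Taichung65-2x on the left).

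The miRNAs listed for 1 ploidy only were selected by a value over 10 in that ploidy at any stage. Their lengths are therefore a description and no support for the comparison above. Of the 84 listed for Taichung65-4x only, 62 were 24 nt and 7 were 21 nt long, and 54 exceeded 10 normalized reads at SCP. Of the 45 listed for Taichung65-2x only, 12 were 24 nt and 26 were 21 nt long, and 14 exceeded 10 at SCP. The tables list a miRNA that exceeds 10 in at least 1 stage of a ploidy, so a miRNA not listed may still have been read at up to 10. Osa-miR6250_R+1 had 113 normalized reads in SCP-4x, against 19.0 and 18.1 at PMA and MA in Taichung65-4x, and its 11.3-fold distance from 10 is a lower bound at SCP. The next were PC-3p-46519_401 with 33.5, osa-miR5082_L-1 with 27.9, PC-3p-622999_25 with 24.7 and PC-5p-1920926_12 with 23.1 in SCP-4x, and osa-miR1320-5p_L-1R+1 had 22.3. Those listed for the diploid stood lower, led by osa-miR167e-3p with 16.4, tae-miR167b_2ss9AC21AT with 14.2, osa-miR5493_R+3 and zma-miR164c-3p_1ss20TC with 12.4 each and PC-5p-689072_27 with 11.6 in SCP-2x.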

How the data were processed

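Total RNA of anthers was made into small RNA libraries by the authors with a TruSeq kit and read on an Illumina HiSeq2500 (4341659 clean reads for SCP-4x, 4008705 for SCP-2x). The authors filtered reads with ACGT101-miR, compared them with miRBase precursors allowing 1 mismatch, and multiplied copy numbers by 1 factor per library, from a regression on common sequences. The deposited signal is therefore normalized reads. Their build was not given in the sources used here, and chromosome positions were not analysed here.

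The tables were matched by name. A miRNA was compared where the larger SCP value exceeded 10, and called where the fold exceeded 2, with a listed 0 set at 0.01. No call rests on a test. Of the entries compared, 12 share a sequence with another (314 entries, 308 sequences). The value of 1 read was recovered as the step that made most low values whole (tolerance 0.01), and between 72.3% and 76.2% of values were whole in each library. Counting intervals (95%, exact binomial) use those reads. Named miRNAs are the 12 highest and 12 lowest called ratios where the larger value reached 50, the 5 most abundant in each SCP library, called members and the most abundant member of each list, the 5 most abundant listed for 1 ploidy, those the study names for SCP, and the opposite arms of named hairpins. Others were chosen after their values were seen. The members and lists were chosen with earlier results of these data known. Python 3.11.15, numpy 2.4.6, pandas 2.3.3, scipy 1.17.1 and matplotlib 3.10.9 were used, and the step recovery, intervals and calls were tested on simulated data.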

Additional observations from a re-analysis of the deposited data

Results flagged for a closer look

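For 8 miRNAs the ploidy ratio at SCP was called one way and at PMA the other way, and this difference between stages was not tested. Those higher in SCP-4x and lower in PMA-4x were PC-3p-1148418_13 (log2 ratio 1.33 at SCP and −1.99 at PMA), PC-3p-162663_115 (1.17 and −1.99), osa-MIR1871-p5 (1.03 and −2.31), osa-MIR2275c-p3 (2.15 and −1.33), osa-miR1429-5p_R+3 (1.36 and −1.93) and osa-miR2275d (2.09 and −1.12). Those lower in SCP-4x and higher in PMA-4x were osa-MIR167c-p3 (−1.57 and 1.94) and osa-miR156l-5p_R-1 (−1.74 and 1.43). Osa-miR2275d is the abundant one among them, with 1113 normalized reads in PMA-4x against 2417 in PMA-2x, and 1546 in SCP-4x against 362 in SCP-2x. Osa-miR1429-5p_R+3 had 19.0 in PMA-4x against 72.7 in PMA-2x, and 31.9 in SCP-4x against 12.4 in SCP-2x.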

How the results depend on the processing

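With equal sums, 74 miRNAs were called higher and 17 lower, and the medians of 24 nt, 21 nt and all miRNAs were 1.10, −0.12 and 0.27. All 44 higher calls and 17 of the 39 lower calls were kept, and 13 of the 33 lower calls of 21 nt. The median-ratio scale, which moved log2 ratios by 0.11, made 61.9% of the calls higher and kept 32 of the 39 lower calls, and scaling by clean reads made 56.8% higher and kept 35. With a limit of 50, 15 were higher and 16 lower, and the median of all was −0.29. Folds over 4 left 8 higher and 1 lower, and folds over 1.5 gave 75 and 98. A pseudocount of 10 left 19 higher and 17 lower and a 24 nt median of 0.49. Of the 44 higher calls, 31 were whole reads, and 24 of these 31 had a counting interval clear of 1. With miRNAs listed for 1 ploidy set at 10, the median of all was 0.024. The cause of each shift other than these settings was not tested. Equal sums moved the log2 ratio of 46 of the 314 compared from below to above 0, among them 4 named and not called, such as osa-miR2275c_R-2 and osa-miR168a-3p_L-3. No replicate could be left out, since each group has 1 library. No paired analysis was possible because each group has 1 library. Depth limits the 24 nt class, whose median member was at 20.7 normalized reads in SCP-4x and 12.4 in SCP-2x.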
